A study of Homo sapiens with 12 samples.

Results

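Interferon-stimulated genes are the genes that a cell transcribes when interferon reaches its receptors, and 35 of them were followed here across human A549 cells. The 35 were a given list of well-known response genes, looked up by Ensembl identifier among 57879 genes in the expression files. All 35 were found, and DDX58 is written below under its present symbol, RIGI. Interferons signal through receptors whose kinases, JAK1 and TYK2, activate STAT2 and related factors. STAT2 joins IRF9 in a complex that binds a short promoter sequence, the interferon-stimulated response element (ISRE). The products sense viral RNA, degrade it, block its translation or hold virions at membranes, and in airway epithelium they form part of the first defence against respiratory viruses.

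A549 is a lung adenocarcinoma cell line, and each line compared here was made from it by lentiviral infection. The TIF1γ line carried an expression vector for TIF1γ, the product of TRIM33, a nuclear ubiquitin ligase known from TGF-β signalling. Its control, named vector, carried the matching empty vector. The sh-TAF15 line carried a short hairpin RNA vector against TAF15, a nuclear protein that binds RNA, and its control, sh-NC, the matching empty vector. Below, sh-TAF15 and sh-NC together are called the shRNA lines. The labels list 3 biological replicates in each of 4 groups, and 8 of these 12 samples were analysed: sh-TAF15 replicates 2 and 3, sh-NC replicate 2, TIF1γ replicates 2 and 3 and vector replicates 1, 2 and 3. No interferon or virus is named in the labels, and whether a line was 1 clone or a pool was not given in the sources used here. The labels do not say that replicates were separate cultures, so every p-value measures only the spread between these libraries. In bulk RNA, fewer cells with a transcript and less of it in each cell cannot be told apart.

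The promoters of 28 of the 35 genes were present in the RefSeq table used here (build GRCh38.p14, 250 bases before to 50 bases after the first listed transcript start). The genes with no entry were IFIT2, MX2, OAS2, OASL, IRF7, USP18 and DHX58. The letters GAAANNGAAA, or TTTCNNTTTC on the other strand, stand for the core of the ISRE. They were found in 16 of the 28 promoters (57.1%), against 996 of all 27305 promoters (3.65%). The letters TTCNNNGAA, the same on both strands, stand for the gamma-activated sequence, an element known from interferon-γ responses, and they occurred in 7 of the 28 (25%) and in 7.88% of all promoters. Matches that overlap each other were counted separately, and they occurred in ISG15, IFIH1, HERC5 and BST2. Below are promoters of 4 genes that were higher in the shRNA lines: IFIT1, IFIT3, IFI44 and OAS3. Promoters of 2 genes that were lower, IFI6 and IRF9, follow. They are examples of genes called in either direction. The calls of IFIT1, IFI6 and IRF9 did not hold with the GC and length trend removed. The promoters are written 5′ to 3′ in the direction of transcription, with every ISRE match in capitals.
IFIT1, chr10:89392373-89392672, plus strand: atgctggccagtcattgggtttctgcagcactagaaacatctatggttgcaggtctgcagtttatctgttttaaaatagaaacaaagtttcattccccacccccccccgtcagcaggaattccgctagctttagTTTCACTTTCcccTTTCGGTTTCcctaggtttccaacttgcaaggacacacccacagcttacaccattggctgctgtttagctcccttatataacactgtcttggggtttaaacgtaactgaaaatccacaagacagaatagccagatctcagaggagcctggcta
IFIT3, chr10:89327747-89328046, plus strand: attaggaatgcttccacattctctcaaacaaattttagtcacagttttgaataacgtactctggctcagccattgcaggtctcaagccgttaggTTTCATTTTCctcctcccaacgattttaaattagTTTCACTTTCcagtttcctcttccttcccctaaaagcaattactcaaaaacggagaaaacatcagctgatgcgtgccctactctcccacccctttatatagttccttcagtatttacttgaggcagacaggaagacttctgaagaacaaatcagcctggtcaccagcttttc
IFI44, chr1:78649539-78649838, plus strand: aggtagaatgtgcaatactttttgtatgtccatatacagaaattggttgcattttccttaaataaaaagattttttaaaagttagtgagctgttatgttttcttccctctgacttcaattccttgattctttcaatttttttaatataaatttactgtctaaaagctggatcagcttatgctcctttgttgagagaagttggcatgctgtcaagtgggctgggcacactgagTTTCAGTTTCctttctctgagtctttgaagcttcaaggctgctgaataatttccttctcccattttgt
OAS3, chr12:112938224-112938523, plus strand: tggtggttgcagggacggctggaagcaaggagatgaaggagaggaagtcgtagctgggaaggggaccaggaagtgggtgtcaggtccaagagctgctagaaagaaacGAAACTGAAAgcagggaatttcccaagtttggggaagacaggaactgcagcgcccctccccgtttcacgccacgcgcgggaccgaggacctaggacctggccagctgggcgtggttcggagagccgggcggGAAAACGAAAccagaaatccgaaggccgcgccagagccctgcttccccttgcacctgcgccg
IFI6, chr1:27672143-27672442, minus strand: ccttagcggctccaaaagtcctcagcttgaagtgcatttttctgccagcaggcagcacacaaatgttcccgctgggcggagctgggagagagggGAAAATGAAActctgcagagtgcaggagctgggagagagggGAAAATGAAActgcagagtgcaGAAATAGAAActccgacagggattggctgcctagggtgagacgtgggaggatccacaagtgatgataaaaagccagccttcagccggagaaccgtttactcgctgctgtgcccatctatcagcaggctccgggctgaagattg
IRF9, chr14:24161015-24161314, plus strand: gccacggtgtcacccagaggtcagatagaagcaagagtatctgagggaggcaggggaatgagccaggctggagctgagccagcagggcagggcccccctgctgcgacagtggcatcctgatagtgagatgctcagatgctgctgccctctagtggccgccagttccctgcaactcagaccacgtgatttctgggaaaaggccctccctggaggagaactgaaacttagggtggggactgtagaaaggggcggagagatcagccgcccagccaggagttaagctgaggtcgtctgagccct
IFIT1, IFIT3 and OAS3 each held 2 matches, IFI44 held 1 and IFI6 held 3. No ISRE match lay in the IRF9 window, which held 1 match of the gamma-activated sequence. Not shown are the other called genes with an entry. Of these, HERC5, which was higher, held 3 ISRE matches. RIGI and PARP9, also higher, and IRF1, which was lower, held no ISRE match. Only exact matches of letters were counted, so close variants of the element were not, and a match does not show that a protein was bound.

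The values are FPKM as deposited, that is fragment counts divided by transcript length and by the size of the library. No read counts were used, so the depth is unknown in absolute terms. From the steps between low values, relative depth ran from 0.790 (sh-TAF15 replicate 3) to 1.04 (vector replicate 3) of that of vector replicate 1. Each library had 12132 to 12622 genes at 1 FPKM or more. TRIM33, the gene overexpressed in the TIF1γ line, had 8.03 and 6.14 FPKM in the TIF1γ libraries, against 2.23, 2.10 and 1.27 FPKM in the vector libraries, and 2.80 and 2.73 FPKM in sh-TAF15 against 3.46 FPKM in sh-NC. Its TIF1γ and vector libraries did not overlap, and the log2 fold change of 1.45 ± 0.27 SE was not called (adjusted p = 0.13). Vector replicate 3 stood apart from the other vector libraries in the genes followed here, and results without it are given below. The TAF15 level was not analysed here. KRT8 and KRT18, keratins of simple epithelium, were listed at 0 in both TIF1γ libraries, which can be a failed estimate, and KRT8 had 1397 to 5747 FPKM in the other 6 libraries. The 19 genes with a 0 beside 100 FPKM or more elsewhere were set aside, and none of them is on the list. Of 6 leukocyte markers, PTPRC reached 0.0227 FPKM and CD3E was listed at 0 in all 8 libraries. In all, 4 of the 6 stayed under 1 FPKM everywhere, and the 6 summed to 6.91 to 35.6 FPKM.

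Most of the 35 genes were expressed at a low level. The mean over the 8 libraries exceeded 10 FPKM for 7 genes, lay between 1 and 10 FPKM for 12 and was below 1 FPKM for 16. The highest means were those of ISG15 (39.4 FPKM), IFI6 (33.9 FPKM), IRF1 (31.8 FPKM), IRF9 (24.0 FPKM) and OAS1 (23.9 FPKM). In all 8 libraries, 10 genes were at 1 FPKM or more, and 8 genes reached 1 FPKM in none. The chemokine genes CXCL10 and CXCL11, strongly induced in cells exposed to interferon, were at or near 0: CXCL10 reached at most 0.109 FPKM and CXCL11 at most 0.0407 FPKM. No interferon gene of the 9 listed was above 0.401 FPKM, the level of IFNE in TIF1γ replicate 3, and IFNB1, IFNG, IFNA2, IFNK, IFNL2 and IFNL3 were listed at 0 in all 8 libraries.

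**Figure D1:**
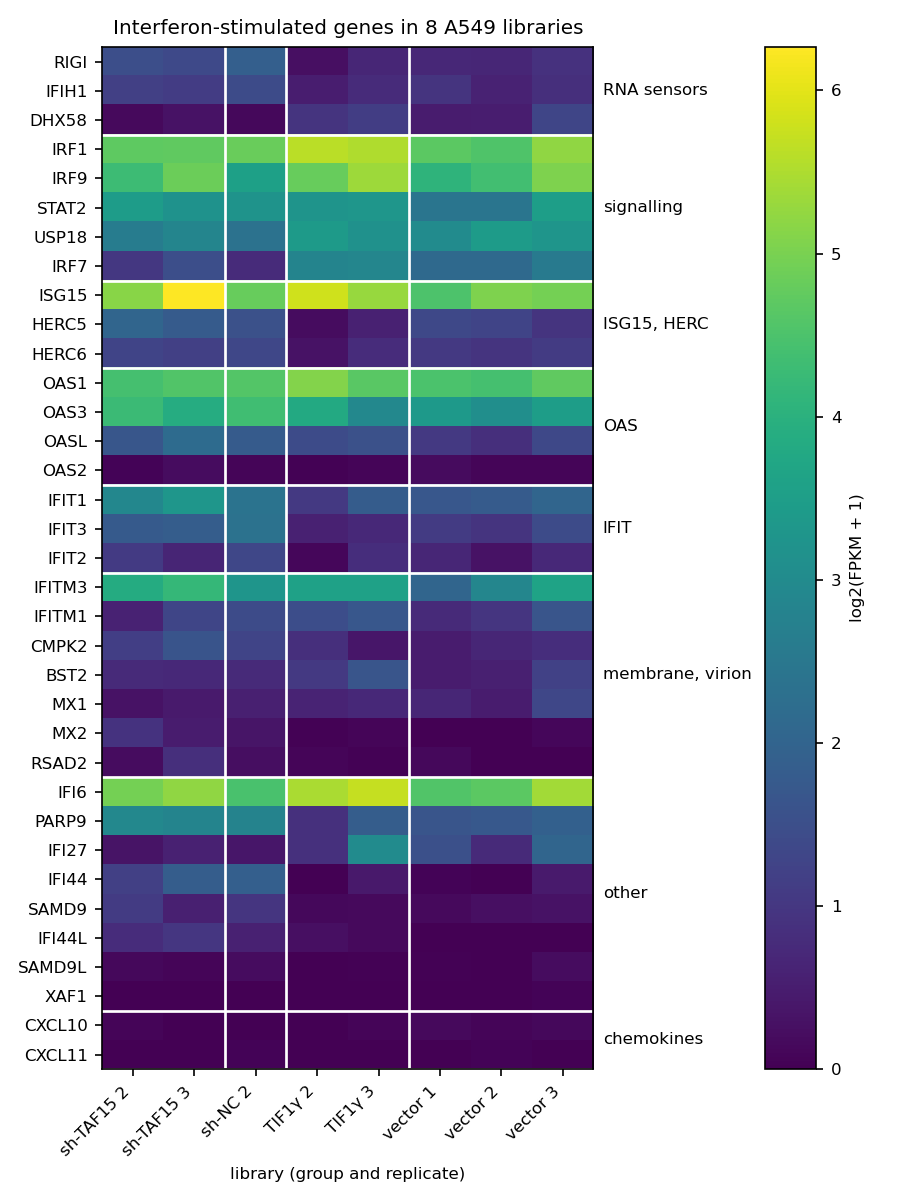
Level of each of the 35 interferon-stimulated genes (rows, grouped by role) in each of the 8 libraries (columns, by group and replicate), as log2(FPKM + 1) on the colour scale. ISG15, IFI6 and IRF1 are bright in every library, whereas IFI44, RIGI and PARP9 are brighter in the sh-TAF15 and sh-NC columns than in the others.

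The RNA sensors, which act at the head of the pathway, were expressed at a low level. RIGI, a helicase that detects viral RNA ends, had 1.82 and 1.59 FPKM in the sh-TAF15 libraries, 2.74 FPKM in the sh-NC library, 0.191 and 0.598 FPKM in the TIF1γ libraries and 0.627, 0.602 and 0.859 FPKM in the vector libraries. All sh-TAF15 and sh-NC values lay above all TIF1γ and vector values. IFIH1, which encodes MDA5, a sensor of long double-stranded RNA, had 1.29 and 1.15 FPKM in the sh-TAF15 libraries, 1.70 FPKM in the sh-NC library, 0.427 and 0.700 FPKM in the TIF1γ libraries and 0.916, 0.527 and 0.810 FPKM in the vector libraries. Its libraries separated in the same way, by a smaller margin. DHX58, which encodes LGP2, a helicase that modulates both sensors, had 0.122 and 0.235 FPKM in the sh-TAF15 libraries, 0.107 FPKM in the sh-NC library, 0.936 and 1.19 FPKM in the TIF1γ libraries and 0.381, 0.411 and 1.47 FPKM in the vector libraries. Here the order was opposite, with every sh-TAF15 and sh-NC library below every other one, and vector replicate 3 was the highest of all.

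Among the signalling genes, IRF1, a transcription factor that interferon-γ and other cytokines induce, had 25.3 and 25.4 FPKM in the sh-TAF15 libraries, 27.7 FPKM in the sh-NC library, 47.9 and 44.5 FPKM in the TIF1γ libraries and 24.6, 22.5 and 36.2 FPKM in the vector libraries. The TIF1γ libraries were the highest, and vector replicate 3 stood above the other vector libraries. IRF9, the DNA-contacting partner of STAT2, had 18.8 and 27.9 FPKM in the sh-TAF15 libraries, 10.8 FPKM in the sh-NC library, 27.0 and 39.6 FPKM in the TIF1γ libraries and 15.97, 19.5 and 32.4 FPKM in the vector libraries. The sh-NC library was the lowest, and within the TIF1γ and vector groups replicate 3 was the highest. STAT2 had 10.0 and 8.09 FPKM in the sh-TAF15 libraries, 8.27 FPKM in the sh-NC library, 8.41 and 8.86 FPKM in the TIF1γ libraries and 4.42, 4.42 and 10.5 FPKM in the vector libraries. Its vector libraries were split, since replicate 3 was above every other library and replicates 1 and 2 were below every other one.
IRF7, the factor that amplifies interferon transcription, had 1.03 and 1.85 FPKM in the sh-TAF15 libraries, 0.698 FPKM in the sh-NC library, 6.11 and 6.37 FPKM in the TIF1γ libraries and 3.41, 3.42 and 4.87 FPKM in the vector libraries. All sh-TAF15 and sh-NC libraries were below all vector libraries, which in turn were below both TIF1γ libraries. USP18, a protease that removes ISG15 from proteins and dampens receptor signalling, had 5.22 and 6.24 FPKM in the sh-TAF15 libraries, 4.15 FPKM in the sh-NC library, 9.59 and 8.07 FPKM in the TIF1γ libraries and 7.18, 9.77 and 8.60 FPKM in the vector libraries. Every sh-TAF15 and sh-NC value was below every TIF1γ and vector value, although near-identical copies of USP18 in the genome make its share of reads uncertain.

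ISG15, a ubiquitin-like protein, had 34.4 and 76.0 FPKM in the sh-TAF15 libraries, 27.0 FPKM in the sh-NC library, 55.5 and 38.4 FPKM in the TIF1γ libraries and 21.8, 32.2 and 30.2 FPKM in the vector libraries. The 2 sh-TAF15 libraries differed from each other more than any other pair of libraries in the same group, and replicate 3 was the highest of the 8. HERC5, the main ligase for ISG15, had 3.10 and 2.48 FPKM in the sh-TAF15 libraries, 1.93 FPKM in the sh-NC library, 0.146 and 0.485 FPKM in the TIF1γ libraries and 1.56, 1.43 and 0.908 FPKM in the vector libraries. Its TIF1γ libraries were the lowest and its sh-TAF15 libraries the highest, with no overlap. HERC6, a related ligase, ranged from 0.232 to 1.51 FPKM, and its sh-TAF15 and sh-NC libraries were likewise above the rest.

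The oligoadenylate synthetases make a second messenger that activates RNase L. OAS1 had 20.4 and 22.6 FPKM in the sh-TAF15 libraries, 23.3 FPKM in the sh-NC library, 33.4 and 24.4 FPKM in the TIF1γ libraries and 21.4, 20.3 and 25.6 FPKM in the vector libraries. OAS3, the form that responds most strongly to long double-stranded RNA, had 18.2 and 13.7 FPKM in the sh-TAF15 libraries, 19.4 FPKM in the sh-NC library, 13.0 and 6.54 FPKM in the TIF1γ libraries and 9.35, 7.58 and 10.2 FPKM in the vector libraries. OAS1 was highest in TIF1γ replicate 2 and otherwise close between groups, whereas OAS3 was higher in all sh-TAF15 and sh-NC libraries than in the rest, by a narrow margin over TIF1γ replicate 2. OASL, a relative without synthetase activity, had 2.19 and 3.58 FPKM in the sh-TAF15 libraries, 2.49 FPKM in the sh-NC library, 1.70 and 1.92 FPKM in the TIF1γ libraries and 1.07, 0.783 and 1.55 FPKM in the vector libraries, and showed the same separation as OAS3. OAS2 did not exceed 0.156 FPKM.

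The IFIT proteins bind viral RNA and block its translation. IFIT1 had 6.47 and 8.85 FPKM in the sh-TAF15 libraries, 4.22 FPKM in the sh-NC library, 1.07 and 2.52 FPKM in the TIF1γ libraries and 2.23, 2.46 and 3.14 FPKM in the vector libraries. IFIT3, its partner, had 2.44 and 2.60 FPKM in the sh-TAF15 libraries, 4.18 FPKM in the sh-NC library, 0.489 and 0.647 FPKM in the TIF1γ libraries and 1.14, 0.911 and 1.70 FPKM in the vector libraries. IFIT2 had 1.10 and 0.577 FPKM in the sh-TAF15 libraries, 1.52 FPKM in the sh-NC library, 0.0737 and 0.761 FPKM in the TIF1γ libraries and 0.590, 0.246 and 0.658 FPKM in the vector libraries. For IFIT1 and IFIT3 every sh-TAF15 and sh-NC library was above every other, while the IFIT2 groups overlapped.

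Among the genes acting at membranes and on virions, IFITM3, which restricts virus entry at endosomes, had 13.4 and 16.9 FPKM in the sh-TAF15 libraries, 8.65 FPKM in the sh-NC library, 10.9 and 11.1 FPKM in the TIF1γ libraries and 3.13, 6.40 and 11.4 FPKM in the vector libraries. IFITM1, its close paralogue at the plasma membrane, had 0.528 and 1.48 FPKM in the sh-TAF15 libraries, 1.68 FPKM in the sh-NC library, 1.78 and 2.23 FPKM in the TIF1γ libraries and 0.690, 0.956 and 2.13 FPKM in the vector libraries. In both the vector libraries spanned a wide range with replicate 3 at its top, and the groups overlapped. Reads shared between IFITM paralogues make their levels uncertain. BST2, which encodes tetherin, had 0.678 and 0.652 FPKM in the sh-TAF15 libraries, 0.680 FPKM in the sh-NC library, 1.04 and 2.16 FPKM in the TIF1γ libraries and 0.395, 0.465 and 1.33 FPKM in the vector libraries.
BST2 was highest in TIF1γ replicate 3, with vector replicate 3 and TIF1γ replicate 2 next. MX1, a dynamin-like GTPase that blocks influenza virus, had 0.226 and 0.358 FPKM in the sh-TAF15 libraries, 0.456 FPKM in the sh-NC library, 0.547 and 0.640 FPKM in the TIF1γ libraries and 0.589, 0.393 and 1.50 FPKM in the vector libraries, and vector replicate 3 was the only library above 1 FPKM. CMPK2 ranged from 0.303 to 2.11 FPKM, and MX2 and RSAD2, which encodes viperin, reached at most 0.878 and 0.805 FPKM.
In CMPK2 the sh-TAF15 and sh-NC libraries were above all others, as they also were in MX2 and RSAD2, neither of which was tested.

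Of the other induced genes, IFI6, a mitochondrial and endoplasmic reticulum protein, had 29.9 and 36.3 FPKM in the sh-TAF15 libraries, 21.3 FPKM in the sh-NC library, 43.7 and 51.7 FPKM in the TIF1γ libraries and 22.7, 24.6 and 41.3 FPKM in the vector libraries. IFI27, a small mitochondrial protein of the same family, had 0.263 and 0.484 FPKM in the sh-TAF15 libraries, 0.301 FPKM in the sh-NC library, 0.832 and 7.19 FPKM in the TIF1γ libraries and 1.87, 0.687 and 3.13 FPKM in the vector libraries. The 2 TIF1γ libraries of IFI27 were far apart, and all sh-TAF15 and sh-NC libraries were below 0.5 FPKM. IFI44, a cytoplasmic protein of poorly known function, had 1.27 and 2.61 FPKM in the sh-TAF15 libraries, 2.75 FPKM in the sh-NC library, 0 and 0.352 FPKM in the TIF1γ libraries and 0.0345, 0 and 0.367 FPKM in the vector libraries, and PARP9, an ADP-ribosyltransferase that works with DTX3L, had 6.58 and 6.13 FPKM in the sh-TAF15 libraries, 5.94 FPKM in the sh-NC library, 0.833 and 2.58 FPKM in the TIF1γ libraries and 2.14, 2.31 and 2.77 FPKM in the vector libraries.
Both were above all TIF1γ and vector libraries in every sh-TAF15 and sh-NC library. SAMD9 ranged from 0.0990 to 1.12 FPKM and IFI44L from 0 to 0.992 FPKM, both with their highest value in an sh-TAF15 library. SAMD9L and XAF1 reached at most 0.154 and 0.0360 FPKM.

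**Figure D2:**
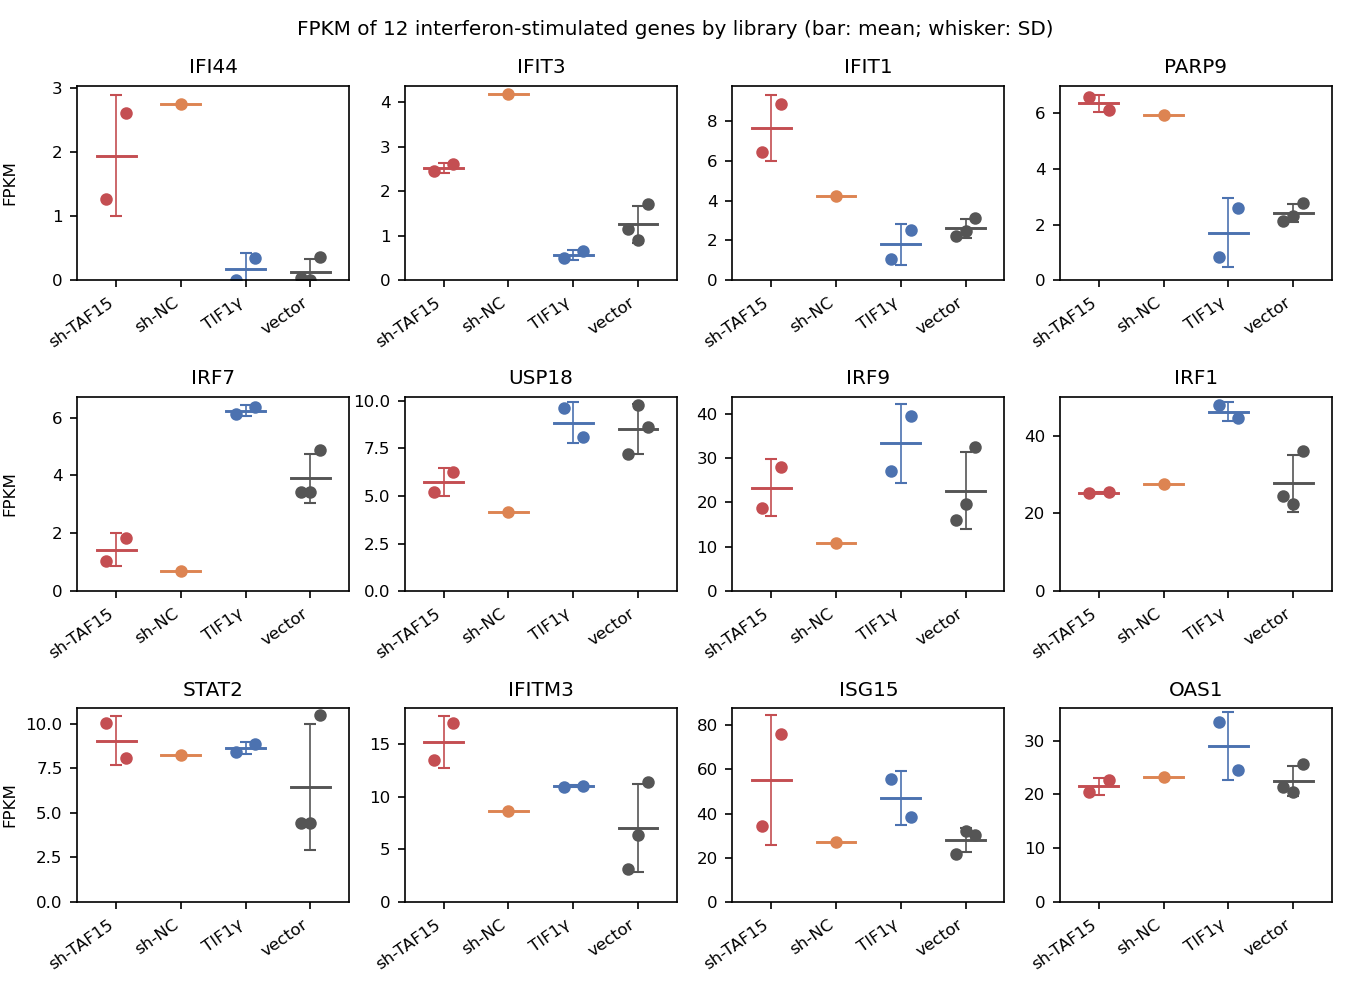
FPKM of 12 interferon-stimulated genes in each library (points) of the sh-TAF15, sh-NC, TIF1γ and vector groups, with the group mean (bar) and SD (whisker; none for sh-NC, which is 1 library). IFI44, IFIT3, IFIT1 and PARP9 are higher and IRF7 and USP18 lower in the sh-TAF15 and sh-NC libraries than in all others, while the third vector point stands above the other vector points for STAT2, IFITM3, IRF9 and IRF1.

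Tests were limma fits on log2(scaled FPKM + 1), so fold changes understate the change of low genes. They covered the 13907 genes at 1 FPKM or more in at least 2 libraries, and a call is an adjusted p below 0.05 over all of these. Of the 35 genes, 25 were tested. The other 10 were MX1, MX2, RSAD2, OAS2, SAMD9, SAMD9L, IFI44L, XAF1, CXCL10 and CXCL11, and no value of theirs exceeded 1.50 FPKM. A gene high in only 1 group could pass the filter through that group, so the 25 are not an even sample of the 35. IFI44, RIGI, IFIH1, CMPK2 and IFIT2 reached 1 FPKM only in libraries of the shRNA lines. IFI27, DHX58 and BST2 reached it only in TIF1γ or vector libraries. Differences of these genes between those lines are thus in part set by the filter.

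The first comparison the design gives is the TIF1γ line against vector, which asks what TIF1γ overexpression changes. None of the 25 genes was called, and limma called 3 of all 13907 genes (0.0216%). At an unadjusted p below 0.05 there were 3 of the 25, against 19.7% of all genes. The 3 were HERC5 (log2 fold change -0.87 ± 0.28 SE, adjusted p = 0.193), IRF1 (log2 fold change 0.65 ± 0.25 SE, adjusted p = 0.215) and IFI6 (log2 fold change 0.62 ± 0.29 SE, adjusted p = 0.25). The TIF1γ libraries lay above all vector libraries for ISG15, IFI6, OASL, IRF1 and IRF7, that is for 5 of 25 genes against 20.8% of all genes. They lay below all of them for IFIT3, RIGI, HERC5 and HERC6, that is for 4 of 25 against 16.8%. Both shares are close to those of all genes.
Intervals were wide. For IRF7 the difference was 0.50 with a 95% interval from -0.11 to 1.12, and for STAT2 it was 0.38 with an interval from -0.36 to 1.12. For IFIT1 it was -0.48, with an interval from -1.16 to 0.20. The median over the 25 genes was 0.25, against 0.01 over all genes.

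The second comparison, sh-TAF15 against sh-NC, asks what TAF15 silencing changes. It sets 2 libraries against 1, and the spread of sh-NC was taken from the other groups. No gene of the 25 was called, and 8 of all genes were (0.0575%). At an unadjusted p below 0.05 only IRF9 remained, at log2 fold change 0.96 ± 0.44 SE, adjusted p = 0.882, against 5.64% of all genes. ISG15 differed by 0.84 with a 95% interval from -0.05 to 1.74. IFI44 differed by -0.43, interval -1.32 to 0.47. IFIT3 differed by -0.59, interval -1.38 to 0.20. Both sh-TAF15 libraries were above the sh-NC library for 10 of the 25 genes and below it for 11, against 39.3% and 33.7% of all genes. The median over the 25 was 0.06.
The test of the difference between both effects, TIF1γ over vector against sh-TAF15 over sh-NC, called none of the 25 genes and 6 of all genes (0.0431%). At an unadjusted p below 0.05 it gave 2 of the 25, IFIT1 at -1.14 and HERC5 at -1.19, against 3.67% of all genes.

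The next comparison set the 1 sh-NC library against the vector libraries, and vector type, line and any batch cannot be told apart in it. sh-NC and vector are both empty-vector controls of the same parental cells, and IFI44 rose and IRF7 fell in sh-NC. IFI44 was higher, with a log2 fold change of 1.69 ± 0.39 SE and an adjusted p of 0.0138, and IRF7 was lower, with a log2 fold change of -1.66 ± 0.36 SE and an adjusted p of 0.0101. These were 2 of the 25 genes, against 11.1% of all genes (3.62% higher and 7.5% lower). USP18 (log2 fold change -1.05 ± 0.32 SE, adjusted p = 0.052), IFIT3 (log2 fold change 1.09 ± 0.35 SE, adjusted p = 0.058) and RIGI (log2 fold change 1.05 ± 0.35 SE, adjusted p = 0.0698) missed the threshold. The sh-NC library was above all vector libraries for 12 of the 25 genes and below all for 6, against 45.4% and 29.7% of all genes.

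The 3 libraries of the shRNA lines were then set against the 5 of the TIF1γ and vector lines, weighting the 4 groups equally. This shares its libraries with the comparisons above, and the vector type, the line and any batch that follows them cannot be told apart. Of the 25 tested genes 13 were called, 7 higher and 6 lower, against 41.4% of all genes (5761 genes, 20.0% higher and 21.4% lower). The share of these genes that changed was thus not far from that of all genes. The genes that rose were IFI44, PARP9, IFIT3, RIGI, IFIT1, HERC5 and OAS3. The genes that fell were IRF7, IRF9, USP18, DHX58, IFI6 and IRF1.

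IFI44 (ENSG00000137965, chromosome 1) was higher, with a log2 fold change of 1.45 ± 0.26 SE and an adjusted p of 0.000919. PARP9 (ENSG00000138496, chromosome 3) was higher, with a log2 fold change of 1.14 ± 0.27 SE and an adjusted p of 0.0053. IFIT3 (ENSG00000119917, chromosome 10) was higher, with a log2 fold change of 1.08 ± 0.23 SE and an adjusted p of 0.00261.
These 3 genes had no overlap between the shRNA-line libraries and the others. IFIT1 (ENSG00000185745, chromosome 10) was higher, with a log2 fold change of 0.96 ± 0.26 SE and an adjusted p of 0.0108. RIGI (ENSG00000107201, chromosome 9) was higher, with a log2 fold change of 0.97 ± 0.23 SE and an adjusted p of 0.00532. HERC5 (ENSG00000138646, chromosome 4) was higher, with a log2 fold change of 0.84 ± 0.23 SE and an adjusted p of 0.0116.
The libraries of these genes did not overlap either, nor did those of OAS3 (ENSG00000111331, chromosome 12), which was higher, with a log2 fold change of 0.71 ± 0.24 SE and an adjusted p of 0.03. Libraries above all others were found for 11 of the 25 genes, against 24.4% of all genes. Of these, IFI44, RIGI, IFIH1 and CMPK2 passed the filter only through the shRNA lines. Their separation is in part set by the filter, and no conclusion is drawn from the count.

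IRF7 (ENSG00000185507, chromosome 11) was lower, with a log2 fold change of -1.68 ± 0.24 SE and an adjusted p of 0.000172. USP18 (ENSG00000184979, chromosome 22) was lower, with a log2 fold change of -0.87 ± 0.21 SE and an adjusted p of 0.00631. DHX58 (ENSG00000108771, chromosome 17) was lower, with a log2 fold change of -0.77 ± 0.27 SE and an adjusted p of 0.0367.
In these 3 genes and in IFI27 every shRNA-line library was below all others, that is in 4 of 25 genes against 12.4% of all genes. DHX58 and IFI27 passed the filter only through TIF1γ and vector libraries. IRF9 (ENSG00000213928, chromosome 14) was lower, with a log2 fold change of -0.89 ± 0.27 SE and an adjusted p of 0.0214. IFI6 (ENSG00000126709, chromosome 1) was lower, with a log2 fold change of -0.63 ± 0.24 SE and an adjusted p of 0.0484. IRF1 (ENSG00000125347, chromosome 5) was lower, with a log2 fold change of -0.58 ± 0.21 SE and an adjusted p of 0.0434.
The libraries of these last 3 genes overlapped. IFI27 (log2 fold change -1.38 ± 0.58 SE, adjusted p = 0.0967) and CMPK2 (log2 fold change 0.62 ± 0.24 SE, adjusted p = 0.0512) missed the threshold. STAT2 differed by 0.08, with a 95% interval from -0.54 to 0.70, and OAS1 by -0.34, with an interval from -0.76 to 0.08.

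IRF7, IFI44 and IFIT3 were called in all 8 fits that left out 1 library and in all 12 other alternative fits. USP18 was called in all 8 and in 12 of 13, the exception being scaling to the same sum. PARP9, HERC5 and IFIT1 were called in all 8 and in 9 of 12, and RIGI in 7 of the 8. DHX58 and IRF1 were called in 3 of the 8, IFI6 in 2 of the 8, and IRF9 and OAS3 in 5 of the 8. The count of called genes was 8 without sh-NC replicate 2 (with IRF1 only just below the threshold, at an adjusted p of 0.049985), 8 without sh-TAF15 replicate 2 and 8 without TIF1γ replicate 3. With no scaling of the libraries it was 13 (9 higher, 4 lower), and with each library scaled to the same sum it was 9 (8 higher, 1 lower). The split over all genes was then 3841 higher and 2305 lower, and 3899 higher and 1962 lower, and the median of all genes moved by 0.15 and 0.25. No called gene changed direction under these scalings.

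**Figure D3:**
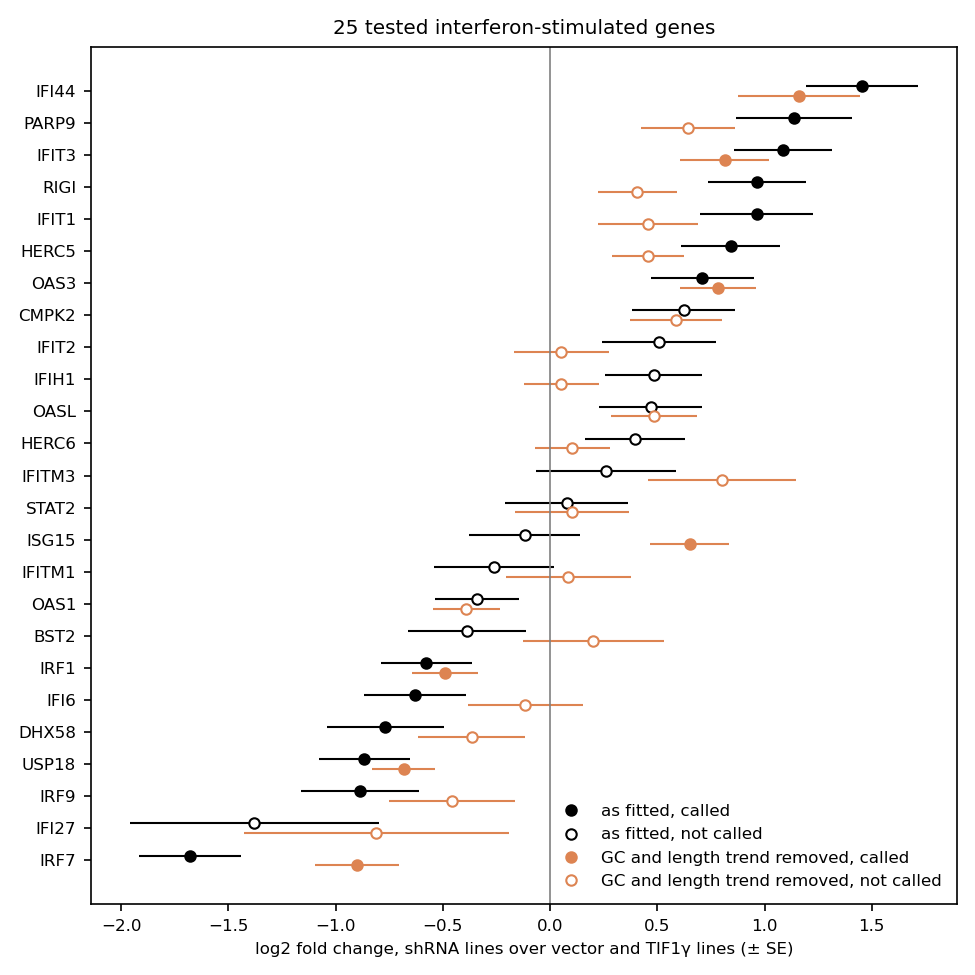
Log2 fold change (x axis) of each of the 25 tested genes (rows), shRNA lines over vector and TIF1γ lines, with the standard error as a bar, as fitted (black, upper) and with the GC and length trend removed (orange, lower). Filled points are calls; IFI44, IFIT3, OAS3, IRF7, USP18 and IRF1 are filled in both, and ISG15 lies on opposite sides of 0.

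Fold change moved with base composition. In the comparison of shRNA lines with the others, the 7 genes that rose had transcript GC of 39.1% to 54.3% (median 43.4%), and the 6 that fell had 51.6% to 66.8% (median 55.8%). Across the 25 genes, Spearman's rho of log2 fold change with transcript GC was -0.80, and it was -0.59 across 11720 protein-coding genes. For TIF1γ over vector, rho was 0.78 across the 25 and 0.79 across the protein-coding genes. All genes in such a correlation share the same 8 libraries, so these are descriptions.
When a smooth trend on transcript GC and length was taken out of each library, 7 of the 25 genes were called, against 30.2% of all genes. Both fits called 6 genes in the same direction, with these log2 fold changes after the removal: IFI44 (1.16, adjusted p = 0.0182), IFIT3 (0.81, adjusted p = 0.021), OAS3 (0.78, adjusted p = 0.0141), IRF7 (-0.90, adjusted p = 0.0117), USP18 (-0.68, adjusted p = 0.0109) and IRF1 (-0.49, adjusted p = 0.0446). The 7 genes called only before the removal were PARP9, RIGI, IFIT1, HERC5, IRF9, DHX58 and IFI6. Their log2 fold changes with the trend removed ran from -0.46 for IRF9 to 0.64 for PARP9. ISG15, whose transcript is 63.4% GC, was -0.12 (adjusted p = 0.733) as fitted and 0.65 (adjusted p = 0.031) with the trend removed. In sh-NC over vector the removal left only USP18 of the 25 called, at -0.88, adjusted p = 0.042, against 10.4% of all genes. How much of each difference comes from base composition was not tested.

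**Figure D4:**
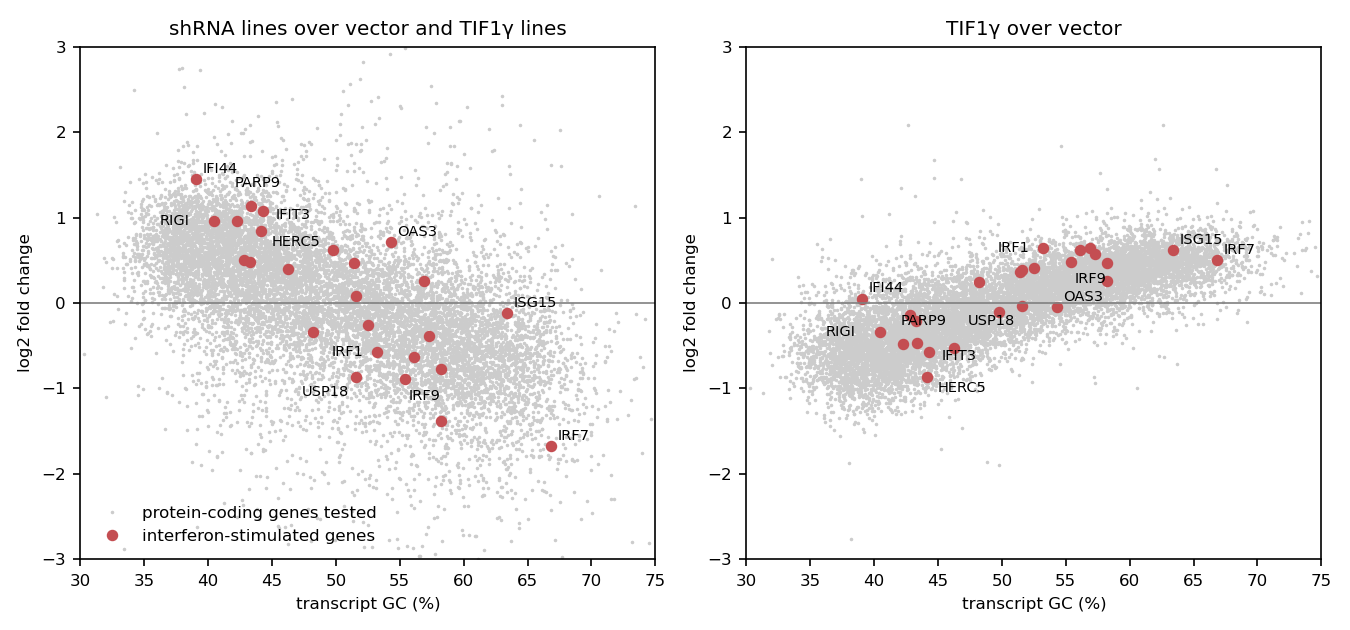
Log2 fold change (y axis) against transcript GC content in percent (x axis) for the 25 tested interferon-stimulated genes (red) and all tested protein-coding genes (grey; a few lie beyond the axes), for shRNA lines over the others (left) and TIF1γ over vector (right). The red points follow the grey cloud, downwards on the left (rho -0.80) and upwards on the right (rho 0.78).

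Vector replicate 3 stood apart in these genes. It was the highest of the 3 vector libraries for 21 of the 25, against 36.9% of all genes, and for 22 of the 25 with the GC and length trend removed, against 40.7%. Its level was above the mean of the other vector libraries for 24 of the 25, against 50.2% of all genes, with a median difference of 0.47 on the log2 scale (range -0.37 to 1.24). STAT2, at 10.5 FPKM against 4.42 and 4.42 FPKM, and DHX58, at 1.47 FPKM against 0.381 and 0.411 FPKM, are examples. TIF1γ replicate 3 was above TIF1γ replicate 2 for 19 of the 25 genes, against 46.2% of all genes. The mean log2 level of the 25 genes was 2.15 and 2.51 in the TIF1γ libraries, against 2.07, 2.06 and 2.57 in the vector libraries. It was 2.32 and 2.47 in the sh-TAF15 libraries, against 2.33 in the sh-NC library. Vector replicate 3 thus had the highest mean of the 8, and sh-TAF15, sh-NC and TIF1γ libraries lay between it and the other vector libraries. Without vector replicate 3, 9 of the 25 genes differed between TIF1γ and vector at an unadjusted p below 0.05, against 27.5% of all genes, none of them was called, and the median was 0.36. That fit called 295 genes of the whole table. Also without it, 13 of the 25 were called in the shRNA lines over the others, against 39.5% of all genes, and 3 in sh-NC over vector, against 8.64%.

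Upstream of these genes, the receptors and kinases were present. IFNAR1 had 7.08 and 4.21 FPKM in the sh-TAF15 libraries, 9.85 FPKM in the sh-NC library, 2.94 and 3.52 FPKM in the TIF1γ libraries and 6.97, 5.46 and 8.20 FPKM in the vector libraries, and IFNAR2 had 9.30 and 10.4 FPKM in the sh-TAF15 libraries, 10.1 FPKM in the sh-NC library, 14.2 and 14.0 FPKM in the TIF1γ libraries and 13.1, 10.8 and 10.9 FPKM in the vector libraries. JAK1 was not called in the comparison of shRNA lines with the others (log2 fold change 0.01, adjusted p = 0.978).
In that comparison, with log2 fold changes in parentheses, 2 of 5 tested receptor genes fell, IFNGR2 (-0.56) and IL10RB (-0.51), and none rose. Of 9 tested JAK-STAT genes 2 rose, SOCS3 (0.99) and STAT3 (0.62), and 2 fell, PTPN6 (-1.89) and TYK2 (-0.68). SOCS3 and PTPN6 encode inhibitors of cytokine receptor signalling. Of 11 tested sensors, adaptors and kinases 2 rose, IFI16 (1.86) and CGAS (1.38), both sensors of DNA, and 3 fell, IRF5 (-1.29), MYD88 (-0.96) and IRF3 (-0.56). Among 4 genes of ISG15 conjugation TRIM25 (0.75) and ARIH1 (0.80) rose. The shares called were thus 40% of receptor, 44.4% of JAK-STAT, 45.5% of sensor, adaptor and kinase and 50% of ISG15 conjugation genes. The share of all genes was 41.4%, not far from these. MAVS, the adaptor below RIGI, was not called (0.12, adjusted p = 0.757).
IFI16 had 3.55 and 4.49 FPKM in the sh-TAF15 libraries, 6.45 FPKM in the sh-NC library, 0.583 and 0.342 FPKM in the TIF1γ libraries and 0.666, 0.946 and 0.508 FPKM in the vector libraries. CGAS had 9.38 and 10.6 FPKM in the sh-TAF15 libraries, 8.46 FPKM in the sh-NC library, 2.06 and 2.43 FPKM in the TIF1γ libraries and 3.28, 3.52 and 2.04 FPKM in the vector libraries. SOCS3 had 29.4 and 33.0 FPKM in the sh-TAF15 libraries, 34.0 FPKM in the sh-NC library, 16.9 and 15.8 FPKM in the TIF1γ libraries and 10.8, 11.8 and 13.7 FPKM in the vector libraries. For these 3 genes the shRNA-line libraries were all above the others. IFI16 passed the filter only through the shRNA lines.
A further list of 53 interferon-stimulated genes, 44 of them tested, gave 23 calls (17 higher, 6 lower), which is 52.3% of those tested against the 41.4% of all genes. The genes that rose were APOL1 (1.87), TRIM22 (1.60), LGALS3BP (1.58), DTX3L (1.29), IFIT5 (1.26), NMI (1.08), SLFN11 (1.01), B2M (0.95), PARP14 (0.89), DDX60L (0.88), ZC3HAV1 (0.84), PNPT1 (0.82), PML (0.80), ADAR (0.80), EIF2AK2 (0.71), APOL6 (0.67) and SP110 (0.59). The genes that fell were ISG20 (-2.78), TYMP (-1.79), IFI30 (-1.67), LY6E (-1.38), SHISA5 (-0.79) and IFI35 (-0.76). With the trend removed, 13 rose and 5 fell, against calls for 30.2% of all genes. APOL1, a secreted and intracellular lipid-binding protein, had 33.6 and 24.0 FPKM in the sh-TAF15 libraries, 40.01 FPKM in the sh-NC library, 7.04 and 7.23 FPKM in the TIF1γ libraries and 7.34, 6.23 and 10.6 FPKM in the vector libraries. ISG20, an RNA exonuclease, had 2.46 and 2.49 FPKM in the sh-TAF15 libraries, 3.26 FPKM in the sh-NC library, 30.4 and 30.5 FPKM in the TIF1γ libraries and 14.997, 18.7 and 17.6 FPKM in the vector libraries. APOL1 was higher in every shRNA-line library than in any other, and ISG20 was lower in every one.
DTX3L, the partner of PARP9, had 5.98 and 4.54 FPKM in the sh-TAF15 libraries, 8.32 FPKM in the sh-NC library, 1.09 and 2.28 FPKM in the TIF1γ libraries and 2.11, 1.57 and 2.57 FPKM in the vector libraries. PARP9 and DTX3L were thus both above the TIF1γ and vector libraries in every sh-TAF15 and sh-NC library. In TIF1γ over vector and in sh-TAF15 over sh-NC no gene of these lists was called.
Markers of cell type moved with the same comparison. The 4 tested epithelial genes, EPCAM, KRT19, CDH1 and CLDN7, were all called lower in the shRNA lines, against 21.4% of all genes. The other 2 of the 6 listed, KRT8 and KRT18, were set aside for their 0 values in TIF1γ. With them, the list summed to 3405 to 4403 FPKM in sh-TAF15 and 2529 FPKM in sh-NC. The sums were 9924 to 11510 FPKM in vector and 79.0 to 80.5 FPKM in TIF1γ. KRT19 fell to 0.775, 0.603 and 0.243 FPKM, against 26.9 to 61.7 FPKM in the TIF1γ and vector libraries. Of 5 fibroblast genes 2 were tested, and both, COL1A1 (1.27) and COL1A2 (1.20), were called higher, against 20.0% of all genes. The summed level of that list was low, 4.13 to 5.99 FPKM in the shRNA lines, against 0.378 to 1.27 FPKM. COL1A1 and COL1A2 thus passed the filter largely through the shRNA lines. Their calls are in part set by it, and no conclusion is drawn from their share. Of 6 leukocyte genes, CD14 (-1.85) fell and ITGAM (0.83) rose, and the sum was 6.91 to 11.5 FPKM, against 11.8 to 35.6 FPKM. Plasmacytoid dendritic markers summed to at most 0.273 FPKM, with CLEC4C and LILRA4 listed at 0 throughout, and endothelial ones to at most 0.270 FPKM. The part of these differences in the interferon-stimulated genes was not tested.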

How the data were processed

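RNA from A549 lines was sequenced, and the deposited files hold FPKM per Ensembl gene, 1 file per library. Per the labels' protocols, RNA with an integrity number above 6.5 was used, and libraries were made from it by isolating poly(A) RNA or by removing ribosomal RNA. Per the submitters' processing notes, cutadapt 1.9.1, HISAT2 2.0.1, HTSeq 0.6.1 and GRCh37 were used; how the authors computed FPKM is not given in the sources used here. Read counts were not used here, so depth is unknown and no count model was used. Of 12 samples, 8 were analysed, and the other 4 were not analysed here.

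Gene names came from GENCODE 29 (52324 of 57879 identifiers matched). Libraries were scaled by a trimmed mean of log ratios (30% of ratios and 5% of abundances trimmed), log2 transformed after adding 1, and filtered at 1 FPKM in at least 2 libraries. The 19 genes with a 0 beside 100 FPKM or more were set aside. limma 3.58.1 (R 4.3.3) was fitted to all 4 groups with a trended, robust variance (4 residual degrees of freedom), with Benjamini-Hochberg adjustment over 13907 genes and 95% intervals. An alternative removed a spline on transcript GC and length from each library, using the longest protein-coding GENCODE 29 transcript of a gene, or otherwise its longest. Other alternatives were the pseudocount, the filter, the scaling, the replicate block and leaving out libraries. The procedure was tested on simulated data. Tables were handled with Python 3.11.15, numpy 2.4.6 and pandas 2.3.3.

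The 35 genes and the other lists were chosen with earlier results of these data known. Values are given per library for each listed gene that was called, for the 15 with the highest mean, and for a fixed set of core response genes. Genes of the other lists are named where called or where they are central to the pathway.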

Additional observations from a re-analysis of the deposited data

Results flagged for a closer look

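IRF1 and HERC5 drew attention because the effects of both constructs pointed in opposite directions in every library. IRF1 had 47.9 and 44.5 FPKM in the TIF1γ libraries, above the vector libraries at 24.6, 22.5 and 36.2 FPKM, while the sh-TAF15 libraries at 25.3 and 25.4 FPKM were below sh-NC at 27.7 FPKM. The difference between the effects was 0.83 on the log2 scale and did not pass the test (limma, adjusted p = 0.999). HERC5 had 0.146 and 0.485 FPKM in the TIF1γ libraries, below the vector libraries at 1.56, 1.43 and 0.908 FPKM, while the sh-TAF15 libraries at 3.10 and 2.48 FPKM were above sh-NC at 1.93 FPKM. The difference was -1.19 (adjusted p = 0.999). Both rest on a single sh-NC library.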

How the results depend on the processing

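None of the 25 genes was called in TIF1γ over vector, in sh-TAF15 over sh-NC or in the difference of both, under any alternative run. In shRNA lines over the others, 13 of the 25 were called. A filter at a mean of 5 FPKM left 9 of the 25 in the fit, and 5 of these 9 were called. With the GC and length trend removed, 7 of the 25 were called, and 8 with that and without vector replicate 3. With 1 library left out, 8 to 13 were called. ISG15 turned positive with the trend removed (0.65), also without vector replicate 3 (0.69), and IFI6 turned to 0.03 in the last of these fits. Leaving out sh-NC replicate 2, and vector replicate 3 with the trend removed, were chosen after seeing the data. In sh-NC over vector, 2 of the 25 were called, against 4 without scaling and 1 with the trend removed. With the stricter filter, 1 of the 9 genes in the fit was called. Over all genes, TIF1γ over vector gave 3 calls, against 5 and 6 with pseudocounts of 0.1 and 0.5, 0 without a filter, 0 with the stricter filter, 0 with the trend removed and 1 without vector replicate 3 as well. It gave 5 with the set-aside genes kept, 5 with these groups alone, and 1 to 295 with 1 library left out, 295 being without vector replicate 3. sh-TAF15 over sh-NC gave 8, against 187 without a filter, 19 with the stricter one, 4 with the trend removed, 3 without vector replicate 3 as well, 1 with these groups alone and 4 to 49 with 1 library left out. The difference of both gave 6, against 103 without a filter, 1 with the trend removed and without vector replicate 3, and 3 to 15 with 1 library left out. The shRNA lines over the others gave 5761, against 3673 to 6377 with 1 library left out, 3673 being without sh-NC replicate 2. The cause of these shifts was not tested. Whether replicate numbers pair the samples was not settled here. Same-numbered deviations correlated at 0.17 and 0.12 between TIF1γ and vector and at -0.37 and -0.24 between sh-TAF15 and vector. With the replicate number as a block, calls over all genes were 44 in TIF1γ over vector, 53 in sh-TAF15 over sh-NC, 31 in the difference and 1021 in sh-NC over vector, with 1 and 10 of the 25 genes in sh-NC over vector and in shRNA lines over the others. With the block and the trend removed they were 0, 2, 0 and 538, with 2617 in shRNA lines over the others, where 5 of the 25 remained significant and ISG15 was 0.67, and 0 of the 25 in sh-NC over vector. Fits of the compared groups alone gave no value for the difference and for shRNA lines over the others, nor did leaving out sh-NC replicate 2 for comparisons that need it.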
